A study of Homo sapiens with 3 samples.

Results

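Interferon-stimulated genes are the effector genes that a cell switches on when it senses virus or stray nucleic acid. In that pathway, cytosolic sensors such as RIG-I and MDA5 trigger the release of interferon, and interferon receptors then act through JAK kinases on a complex that holds STAT2 and IRF9. That complex binds the interferon-stimulated response element in the promoters of these genes, and their products cut, sequester or tag viral RNA and protein. DNA plasmids can also be sensed in the cytosol, which is why this pathway is of interest after transfection.

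The genes followed here were 38 well-known interferon-stimulated genes, chosen by symbol. Of these, 30 had a row in the count table of 15488 genes, and 24 of the 30 had at least 1 count in a library described here. The cells were 22Rv1, a human prostate cancer cell line, treated for 48 h with 20 μg of plasmid carrying MLPH transcript V4 or with the same amount of plasmid carrying MLPH transcript V1. A control sample was transfected with the empty vector. All groups thus received plasmid. MLPH encodes melanophilin, an adaptor in melanosome transport. The series has 3 samples, 1 per group, and poly(A) RNA was measured as sequencing reads counted for each gene. The comparison is V4 over V1, since the remaining count column (columns not used: 1) could not be tied to the empty-vector sample by its name. Nothing below therefore shows whether plasmid or MLPH induced any gene over the empty vector.

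The V4 library held 9609381 counts and the V1 library 9253399. Because each transfection is represented by 1 library, differences could not be tested over samples and have no replicate check. Each ratio is of scaled counts and has a 95% exact binomial interval that covers counting error only. A gene was kept at a mean level of at least 1 CPM (counts scaled to the library total), and it was called higher or lower in V4 at 1.5-fold or more with an interval that excluded 1. MLPH itself had 7773 counts in the V4 library and 7219 in the V1 library, which does not check the labels because both plasmids carry the gene. Luminal prostate markers matched the labelled line: 6 of 8 had counts, with a sum of 1206 CPM in V4 and 1213 CPM in V1. The leukocyte markers PTPRC and CD3E had 0 counts in both libraries. Of the fibroblast markers, COL1A2 had 4 counts in V4 and 976 in V1, COL3A1 had 0 and 526, LUM had 44 and 33, and the other 3 had no row, so that their sum was 48 counts in V4 and 1535 in V1. The part of these collagen counts in any result below was not tested.

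Few interferon-stimulated genes with enough counts to compare were called different between the libraries. Of the 38, 8 had no row and were not analysed here, 6 had 0 counts in both libraries, 8 had counts but lay below the filter, and 16 were kept. Of the 16 kept, 0 were called higher and 2 called lower in V4, namely HERC5 and IFI35. Among all 8840 genes kept, 5.50% were called higher and 7.10% lower, shares at which 16 genes would give 0.88 and 1.14 calls. The lower calls were thus less than 1 gene above the background share. The median log2 ratio of the 16 was -0.05, against -0.00 over all genes kept. For 12 of the 16 the interval included 1, and the other 4, HERC5, IFI35, IRF1 and ISG15, had fewer scaled counts in V4. A gene that was not called is not thereby shown to be at a like level. Among those not called, the intervals of IFIT2, IFIT5, CMPK2, IRF1, OAS1 and MX1 reached beyond 1.5-fold.

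**Figure D1:**
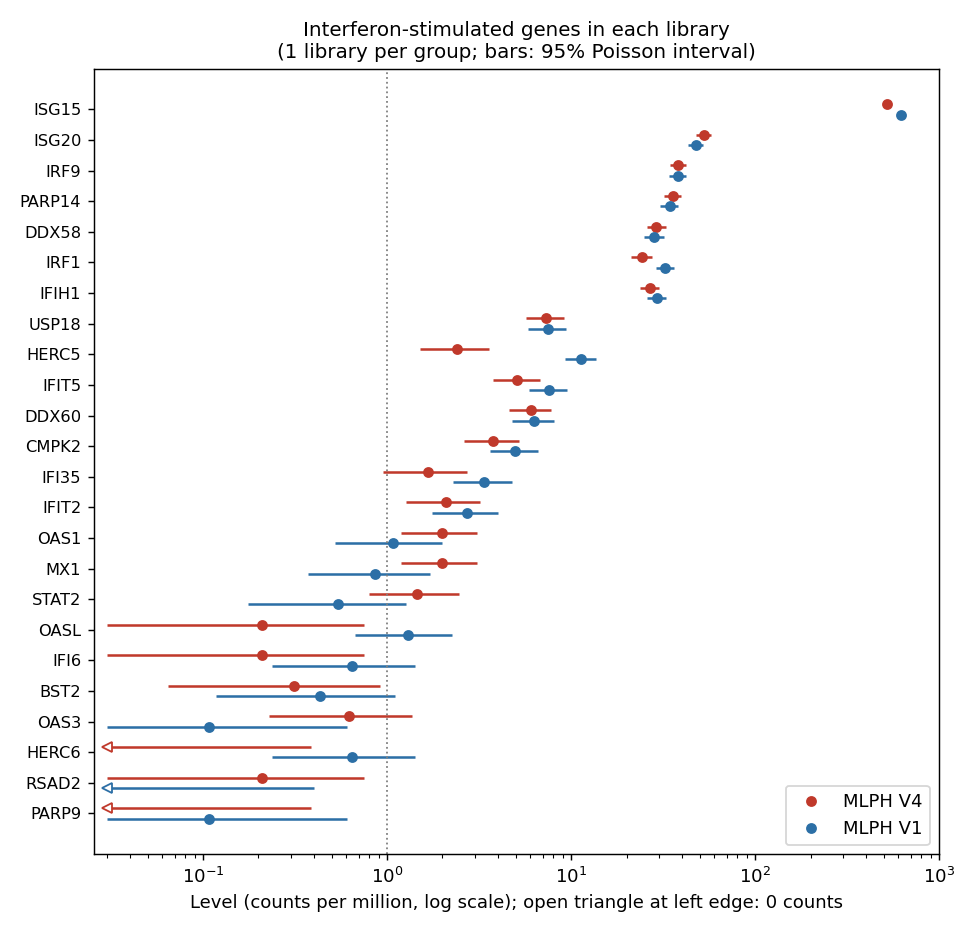
Level of each interferon-stimulated gene with at least 1 count, in CPM on a log axis, for the MLPH V4 library (red) and the MLPH V1 library (blue). Points are 1 library each, bars are 95% exact Poisson intervals cut at the left edge of the plot, open triangles mark 0 counts, and the dotted line marks 1 CPM, the level of the filter. ISG15 stands at 524 CPM in V4 and 620 CPM in V1, far right of every other gene, and HERC5 shows the widest gap between the libraries among the genes kept.

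The ISG15 conjugation system held both the most abundant gene and, among the 16 genes kept, the largest gap. ISG15, a ubiquitin-like protein that is attached to other proteins, had 5031 counts in the V4 library and 5733 in the V1 library. It was 1.16-fold lower in V4 (interval 1.11 to 1.20), short of a call, and its log2 ratio moved to 0.02 with a GC content trend removed. ISG15 alone made up 68.4% of all member counts in V4 and 70.5% in V1.

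HERC5, the main ligase that attaches ISG15 to newly made proteins, had 23 counts in the V4 library and 105 in the V1 library. It was 4.63-fold lower in V4 (interval 2.93 to 7.62), and it was called under all 11 alternative settings, with log2 ratios from -2.19 to -1.88. HERC6, its close relative beside it in the genome, had 0 counts in V4 and 6 in V1. HERC6 lay below the filter, with an interval that began at 1.19-fold lower. Both HERC genes thus had fewer counts in V4, HERC6 at a level where a few reads decide.

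USP18, the protease that removes ISG15 and also damps the interferon receptor, had 70 counts in V4 and 69 in V1, a ratio of 1.00 (interval 0.707 to 1.42). UBA7, the enzyme that activates ISG15, was listed at 0 in both libraries. UBE2L6, which passes ISG15 from UBA7 to HERC5 and was on a second list, had 0 counts in V4 and 26 in V1. With a floor of 3 counts in place of 0, UBE2L6 was 8.79-fold lower in V4, and its interval allowed a gap as small as 6.65-fold. Within this system, the ligase HERC5 was called lower in V4, while the modifier and its protease differed by less than the call threshold. UBE2L6 reached the filter only through its counts in V1, at 2.81 CPM. Its list was chosen with earlier results of these data known, so its lower count in V4 is not independent support for HERC5.

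The promoters of HERC5 and ISG15 are shown beside those of IFIH1 and IFI35 because these genes contrast in their ratios while 3 of them hold the same response element. The windows are RefSeq promoters on GRCh38.p14, from 250 bases before to 50 after the annotated start, printed 5′ to 3′ on the gene's strand. HERC5 lies at chr4:88456869-88457168 on the plus strand, ISG15 at chr1:1013247-1013546 on the plus strand, IFIH1 at chr2:162318635-162318934 on the minus strand, and IFI35 at chr17:43006534-43006833 on the plus strand. Capitals mark matches to GAAANNGAAA, the core of the interferon-stimulated response element, on either strand in the first 3 windows. In the IFI35 window they mark TTCNNNGAA, the core of the gamma-activated site of interferon gamma signalling, which reads alike on both strands.
HERC5: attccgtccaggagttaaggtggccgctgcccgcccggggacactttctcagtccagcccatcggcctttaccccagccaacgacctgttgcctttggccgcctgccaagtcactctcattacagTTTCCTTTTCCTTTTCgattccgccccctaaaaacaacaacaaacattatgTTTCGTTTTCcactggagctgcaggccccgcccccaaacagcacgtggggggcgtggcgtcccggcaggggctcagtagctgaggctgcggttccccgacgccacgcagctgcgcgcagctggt
ISG15: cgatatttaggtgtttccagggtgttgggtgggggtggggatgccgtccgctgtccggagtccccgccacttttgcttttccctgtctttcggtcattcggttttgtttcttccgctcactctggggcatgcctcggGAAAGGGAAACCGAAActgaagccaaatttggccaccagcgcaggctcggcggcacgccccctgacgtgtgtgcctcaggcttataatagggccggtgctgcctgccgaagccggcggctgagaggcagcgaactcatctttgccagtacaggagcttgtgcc
IFIH1: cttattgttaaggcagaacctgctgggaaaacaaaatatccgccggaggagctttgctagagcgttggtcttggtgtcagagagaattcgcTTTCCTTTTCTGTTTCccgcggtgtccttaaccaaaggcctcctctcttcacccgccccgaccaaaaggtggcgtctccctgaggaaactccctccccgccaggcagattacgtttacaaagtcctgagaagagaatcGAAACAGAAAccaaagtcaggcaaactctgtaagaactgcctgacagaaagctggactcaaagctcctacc
IFI35: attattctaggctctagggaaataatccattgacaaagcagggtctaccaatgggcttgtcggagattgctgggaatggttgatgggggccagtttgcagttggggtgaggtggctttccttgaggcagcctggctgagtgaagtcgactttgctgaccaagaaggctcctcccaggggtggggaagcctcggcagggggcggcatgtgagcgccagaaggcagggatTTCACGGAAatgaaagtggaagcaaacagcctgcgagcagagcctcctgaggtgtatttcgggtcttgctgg

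HERC5 held 3 matches to the response element core, ISG15 2 and IFIH1 3, and in each of these windows a pair of matches overlapped. The overlapping pair began 125 bases before the start in HERC5, 113 bases before it in ISG15 and 159 bases before it in IFIH1. Of the 38 genes, 30 had a promoter window, and 20 of the 30 held GAAANNGAAA on either strand in at least 1 window. That was 66.7% of them, against 4.38% of all 27305 genes with a window and 3.57% of all 35116 windows. TTCNNNGAA stood in 10 of the 30, or 33.3%, against 9.38% of all genes, and the 2 motifs can overlap. Of 14 kept genes with a window, the 8 that held GAAANNGAAA had log2 ratios from -2.12 to 1.05 (median -0.05), and the 6 that did not had ratios from -0.89 to 0.79 (median -0.16). These letters describe the windows only. The motif was also present in 3 of the 4 genes listed at 0 in both libraries that had a window.

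Genes for sensors of viral RNA had nearly equal counts. IFIH1, which encodes the double-stranded RNA sensor MDA5, had 257 counts in V4 and 270 in V1, a ratio of 0.94 (interval 0.788 to 1.12). DDX58, which encodes RIG-I, the sensor of RNA ends, had 279 counts in V4 and 261 in V1, a ratio of 1.05 (interval 0.887 to 1.25). DDX60, a helicase linked to RIG-I signalling, had 58 counts in each library, with a ratio of 0.986 (interval 0.673 to 1.44). The intervals of IFIH1 and DDX58 lay wholly inside the 1.5-fold limits, and that of DDX60 did so as well.

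Among the transcription factors, IRF9, the DNA-binding partner of STAT2, had 366 counts in V4 and 351 in V1, a ratio of 1.03 (interval 0.886 to 1.19). IRF1, an early factor induced by interferon gamma and by inflammatory signals, had 233 counts in V4 and 300 in V1. IRF1 was 1.31-fold lower in V4 (interval 1.10 to 1.56), a gap beyond counting error but below the call threshold. STAT2 had 14 counts in V4 and 5 in V1 and fell just short of the filter, with a ratio of 2.76 and an interval from 0.94 to 9.80 that included 1. IRF7, the factor that amplifies interferon alpha production, had no row.

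**Figure D2:**
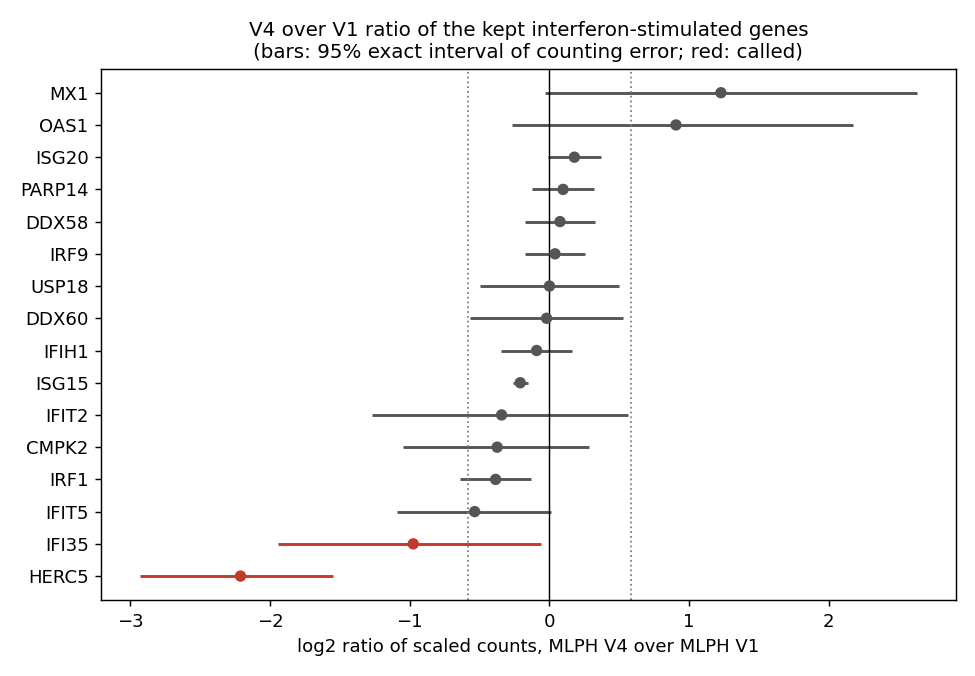
Log2 ratio of scaled counts, MLPH V4 over MLPH V1, for the 16 interferon-stimulated genes kept, with 95% exact intervals of counting error. Dotted lines mark 1.5-fold in either direction and red marks called genes. HERC5 and IFI35 lie left of the lines with intervals that exclude 0 on this scale, while OAS1 and MX1, to the right, have intervals that include it.

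The RNA-binding effector families had low counts. IFIT proteins hold viral RNA that lacks host cap marks. IFIT5 had 49 counts in V4 and 70 in V1, a ratio of 0.69 whose interval, 0.469 to 1.01, just included 1. IFIT2 had 20 counts in V4 and 25 in V1, a ratio of 0.789 (interval 0.416 to 1.48). IFIT5 was called lower with a GC content trend removed (log2 ratio -0.66). IFIT1 and IFIT3, usually among the most strongly induced of all these genes, had no row.

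OAS proteins make short adenylate chains when they bind double-stranded RNA, and their genes did not lean one way. OAS1 had 19 counts in V4 and 10 in V1, a ratio of 1.87 (interval 0.829 to 4.51). OAS3 had 6 counts in V4 and 1 in V1, and OAS2 was listed at 0 in both. OASL, which lacks the synthetase activity and assists RIG-I, had 2 counts in V4 and 12 in V1, and its ratio of 0.164 had an interval from 0.018 to 0.738. OASL was below the filter, and both OASL and HERC6 were called lower once no filter was applied.

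Among direct antiviral effectors, ISG20, an RNA exonuclease, had 504 counts in V4 and 439 in V1, a ratio of 1.13 (interval 0.994 to 1.29). MX1, a dynamin-like GTPase that blocks influenza and other viruses, had 19 counts in V4 and 8 in V1, a ratio of 2.34 whose interval, 0.979 to 6.19, included 1. MX1 was called higher with a GC content trend removed, at a log2 ratio of 1.12. CMPK2, a mitochondrial nucleotide kinase, had 36 counts in V4 and 46 in V1, a ratio of 0.772 (interval 0.485 to 1.22). RSAD2, the neighbour of CMPK2 that encodes viperin, had 2 counts in V4 and 0 in V1. BST2, or tetherin, which holds budding virus at the cell surface, had 3 counts in V4 and 4 in V1. MX2, TRIM22, SAMD9 and SAMD9L had no row.

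PARP14, a large ADP-ribosyltransferase, had 344 counts in V4 and 317 in V1, a ratio of 1.07 (interval 0.916 to 1.25). PARP9, which works as a pair with the ubiquitin ligase DTX3L, had 0 counts in V4 and 1 in V1. IFI35, a leucine zipper protein that binds NMI, had 16 counts in V4 and 31 in V1. It was 1.96-fold lower in V4 (interval 1.04 to 3.85), the second of the calls. That call ended at a 2-fold threshold and with a transcript length trend (log2 ratio -0.74) or a GC content trend (-0.73) removed. IFI6 had 2 counts in V4 and 6 in V1, while IFI44, IFI44L, XAF1 and EPSTI1 were listed at 0 in both libraries and IFI27 had no row.

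Per length of transcript, ISG15 led with 665 CPM per kilobase in V4 and 787 in V1. IRF9 followed at 20.7 CPM per kilobase in V4 and 20.6 in V1, then ISG20 at 9.31 and 8.42, IFIH1 at 7.44 and 8.12, and DDX58 at 6.67 and 6.48. IRF1 stood at 4.71 CPM per kilobase in V4 and 6.29 in V1, PARP14 at 4.24 and 4.06, and USP18 at 3.42 and 3.50. This order depends on the length used, that of the longest annotated transcript, which was 5634 bases for ISG20 and 1838 for IRF9. By CPM alone, ISG20 (52.4 in V4 and 47.4 in V1) stood above IRF9 (38.1 and 37.9). The median over both libraries was 2.74 CPM per kilobase for the 16 genes and 5.26 for all genes kept. Levels between genes are limited by the counting: HSP90AB1, CDC42 and CLTC, chosen after their values were seen and needed by every cell, had 2, 6 and 40 counts in V4 and 4, 11 and 15 in V1. A gene listed at 0 here is therefore not shown to be silent. A floor of 3 counts is 0.312 CPM in V4 and 0.324 CPM in V1.

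At higher levels the genes lay close together, as did the middle part of all genes kept at those levels. Of the 16, 7 had a mean of at least 10 CPM (ISG15, ISG20, IRF9, PARP14, DDX58, IRF1 and IFIH1), and their log2 ratios ran from -0.38 to 0.18 with a median of 0.04. Quartiles of the log2 ratio were -0.15 and 0.09 for these 7 genes, and -0.18 and 0.18 for all 5233 genes at that level. The full range over those 5233 genes was -8.05 to 1.16. None of the 7 was called, where 2.69% of those 5233 genes were called higher and 3.10% lower. At such shares a count of 0 says nothing about 7 genes. Summed over all members, the libraries held 7353 counts in V4 and 8128 in V1, a ratio of 0.892 (interval 0.864 to 0.921) that rests mostly on ISG15. Without ISG15, the sums were 2322 in V4 and 2395 in V1, a ratio of 0.956 (interval 0.903 to 1.01). Without HERC5 as well, the sums were 2299 in V4 and 2290 in V1, a ratio of 0.99 (interval 0.934 to 1.05). HERC5 was the kept gene with the largest gap, so leaving it out moves the ratio toward 1.

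**Figure D3:**
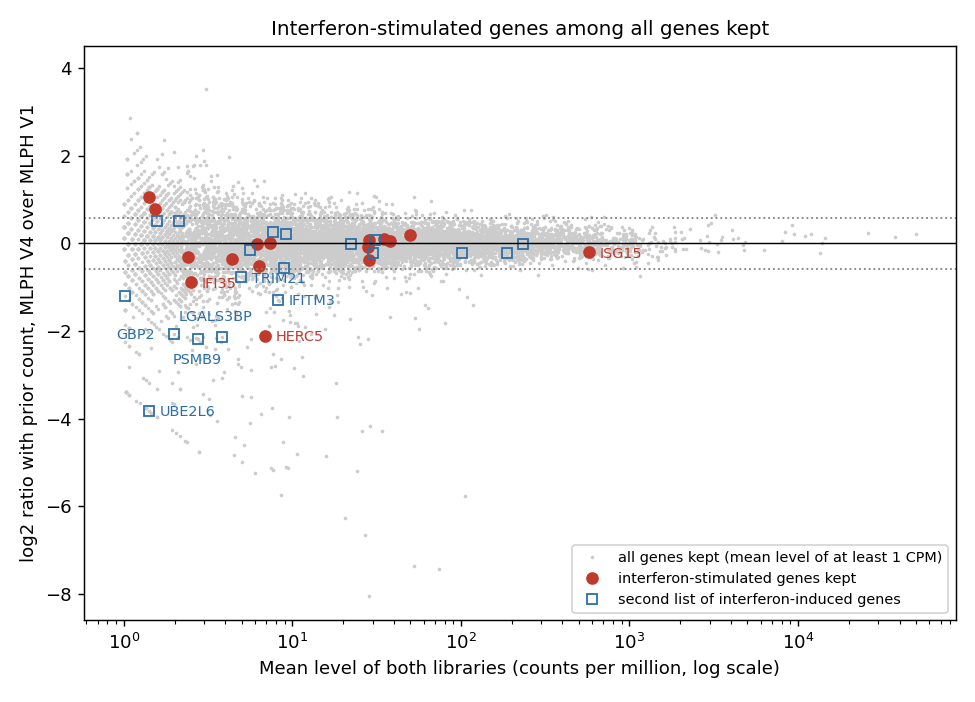
Log2 ratio (prior count of 2) of MLPH V4 over MLPH V1 against the mean level of both libraries in CPM on a log axis, for all genes kept (grey), the 16 interferon-stimulated genes (red) and a second list of interferon-induced genes (open blue squares). Dotted lines mark 1.5-fold and called genes of both lists are labelled, with ISG15. The called genes lie below 10 CPM and all are on the lower side.

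Upstream of these genes, interferons themselves were barely counted. Of 21 interferon ligand genes, 12 had a row, and these summed to 5 counts in V4 and 10 in V1, with IFNB1 at 1 and 2 and IFNL1 at 0 and 2. Receptor genes ranged widely in counts. IFNLR1, the specific chain of the interferon lambda receptor, was listed at 0 in both libraries, and IFNGR2, a chain of the interferon gamma receptor, had 3 counts in each. IFNAR1, a chain of the type I receptor, had 333 counts in V4 and 417 in V1, a ratio of 0.788 (interval 0.68 to 0.912). IL10RB, the shared chain of the lambda receptor, had 697 counts in V4 and 754 in V1, and the kinase gene TYK2 had 1610 and 1474. JAK1 and IFNAR2 had no row. Of 5 kept genes of receptors and JAK-STAT signalling, 0 were called in either direction, and their median log2 ratio was -0.07. At the background share 5 genes would give 0.27 higher and 0.36 lower calls, so a count of 0 says nothing about these genes.

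Of 12 kept nucleic acid sensing genes, 0 were called higher and 1 lower in V4, with a median log2 ratio of -0.01. At the share of all genes kept (5.50% higher and 7.10% lower), 12 genes would give 0.66 higher and 0.85 lower calls, so the list's count was at the background. MAVS, the mitochondrial adaptor of RIG-I and MDA5, had 4115 counts in V4 and 3274 in V1, a ratio of 1.24 (interval 1.18 to 1.30), short of a call. TRIM25, a ligase that acts on RIG-I, had 875 counts in V4 and 888 in V1, and the helicase gene DDX41 had 459 and 426. MB21D1, which encodes the cytosolic DNA sensor cGAS, had 0 counts in V4 and 19 in V1. It reached the filter only through V1, at 2.05 CPM there. With the floor of 3 counts in place of 0, it was 6.42-fold lower in V4, and its interval allowed a gap as small as 4.73-fold. TMEM173, which encodes STING, the adaptor that cGAS activates, lay below the filter with 0 counts in V4 and 10 in V1.

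Among 9 kept negative regulators, 0 were called higher and 1 lower, with a median log2 ratio of 0.11. The background share would give 0.49 higher and 0.64 lower calls among 9 genes, about the count seen. SOCS3, a feedback inhibitor of JAK kinases, had 14 counts in V4 and 36 in V1 and was 2.61-fold lower in V4 (interval 1.37 to 5.23). The 3 most abundant were TRIM27, with 3014 counts in each library, PIAS3, an inhibitor of STAT binding, with 1329 counts in V4 and 1529 in V1, and the phosphatase gene PTPN1, with 641 and 585.

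A second list, of 45 other interferon-induced genes, had 19 kept, of which 0 were called higher and 6 lower in V4. That was 31.6% lower, against 7.10% of all genes kept, and the median log2 ratio was -0.23. The list was chosen with earlier results of these data known, so this share is not independent support. All 6 called genes lay below 10 CPM. Among them, UBE2L6, PSMB9 and GBP2 stood at 0, 0.833 and 0.624 CPM in V4 and reached the filter only through V1. Genes kept in that way could be called only lower, which limits what the count of lower calls shows. Lower calls were rarer among all genes at 10 CPM or more (3.10%), so 7.10% is below the share at the level of these 6. Besides UBE2L6, these were PSMB9, a subunit of the immunoproteasome, with 8 counts in V4 and 43 in V1, and GBP2, a guanylate-binding GTPase, with 6 and 31. PSMB9 was 5.45-fold lower in V4 (interval 2.53 to 13.4) and GBP2 5.24-fold lower (interval 2.15 to 15.4). LGALS3BP, a secreted glycoprotein, had 12 counts in V4 and 59 in V1 and was 4.98-fold lower (interval 2.65 to 10.2). IFITM3, which blocks viral entry at endosomes, had 44 counts in V4 and 109 in V1, 2.51-fold lower (interval 1.75 to 3.65). TRIM21, a cytosolic antibody receptor, was 1.76-fold lower (interval 1.13 to 2.77). The most abundant genes of this list were LAP3, with 2205 counts in V4 and 2191 in V1, TAP1, a subunit of the peptide transporter for antigen presentation, with 1641 and 1899, and IFI30, with 880 and 1019. Each of these 3 lay within the 1.5-fold limits. The 6 called genes of this list were lower in V4, as was the sum of the fibroblast markers, at 48 counts in V4 and 1535 in V1. That sum was lower through COL1A2 and COL3A1 only, while LUM had 44 counts in V4 and 33 in V1. Whether the 6 genes and the collagen counts are linked was not tested.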

How the data were processed

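The values are whole-number read counts for each gene, deposited by the authors. The submitters' processing notes name build hg19. According to the labels' protocols, libraries were made from poly(A) RNA and read as 150 bp single ends. Aligner, counting program, strand setting and handling of multiply matching reads: not given in the sources used here. A technical replicate is mentioned in the design text, with no word on whether runs were summed. Members and lists were chosen with earlier results of these data known.

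Columns were tied to samples by name. The column that names no transfection (columns not used: 1) entered no step, and the planned ratios over the empty vector were left out. Counts of 21 symbols on several rows were summed, and 22 rows bearing a date stayed in totals unnamed. Libraries were scaled by TMM in edgeR 4.0.16 (factors 0.988 for V4 and 1.01 for V1), used for scaling only. Log2 ratios had a prior count of 2. Printed ratios and folds had none. Intervals were exact Clopper-Pearson conditional binomial ones (scipy 1.17.1). They cover counting error alone, as PCR copies of a molecule cannot be told from separate molecules. The longest GENCODE 29 transcript gave length and GC content, for 95.4% of genes kept and all 16 members kept. Alternatives used DESeq2 1.42.0 size factors and lowess (statsmodels 0.14.6, fraction 0.3). The procedure was tested on simulated data. Some genes of the pathway lists are not reported here. Named were all members, the called genes of each list and its 3 most abundant. JAK1, IFNAR2, IFNB1, IFNL1, TMEM173, IFNLR1, IFNGR2, DTX3L and the genes of every cell named in the text were chosen after their values were seen.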

Additional observations from a re-analysis of the deposited data

How the results depend on the processing

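Each of 11 other settings changed 1 choice. HERC5 was called lower in V4 under all 11. The count of interferon-stimulated genes called lower, 2 as reported, became 4 with no filter on low counts (OASL and HERC6 added), and 1 at a mean CPM of at least 5, at a 2-fold threshold and with a transcript length trend removed, where IFI35 was no longer called. With a GC trend removed it stayed at 2, with IFIT5 in place of IFI35. The count called higher, 0 as reported, became 2 with no condition on the interval (OAS1 and MX1) and 1 with a GC trend removed (MX1). Over all genes, 486 called higher and 628 lower became 238 and 288 at a mean CPM of at least 5, where fewer genes were kept, and 186 and 379 at a 2-fold threshold. The median log2 ratio of the members ran from -0.15 to -0.02. Scaling moved the median of all genes by less than 0.1. No paired analysis was possible because each group has 1 library and no replicate numbers. Leaving out a replicate was not possible for the same reason. Depth limits the genes below the filter: a gene at 0 counts could reach 0.384 CPM in V4 and 0.399 CPM in V1 by the 95% exact Poisson bound, and the floor of 3 counts is 0.312 and 0.324 CPM.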

Other observations

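Some partnered or related interferon-induced genes had unlike counts. DTX3L, the partner of PARP9, had 211 counts in each library, while PARP9 had 0 in V4 and 1 in V1. Among immunoproteasome genes, PSMB8 had 9 counts in V4 and 8 in V1, beside 8 and 43 for PSMB9. In the IFITM family, IFITM2 had 80 counts in V4 and 66 in V1, a ratio of 1.20 (interval 0.852 to 1.68), beside 44 and 109 for IFITM3. IFITM genes are close copies, so reads that match more than 1 of them make both values uncertain. DTX3L, PSMB8 and IFITM2 were chosen after their values were seen.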
